A study of Mus musculus with 4 samples.

Results

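The 5 chemokine genes Ccl3, Ccl4, Ccl5, Xcl1 and Cxcl10 were followed through single-cell RNA libraries of CD8 T cells from tumour-draining lymph nodes. They were chosen by name, from 32285 features in the count matrices, and all 5 were found and passed the filter on low counts. The cells had been sorted as CD8 T cells positive for CD44, which marks antigen-experienced cells, and for the CD90.1 allele, from C57BL/6 mice on day 14 after tumour implantation. In the C6M9 group the labels give low affinity for GP33, and in the M9 group high affinity; GP33 is a viral peptide recognised by CD8 T cells. Each group had 2 libraries, made with the droplet kit for the 3′ end. The labels speak of biological duplicates drawn from 35 mice for C6M9 and 10 for M9. How the mice were divided between the libraries is not stated, so the p-values measure the spread between libraries, which may be technical in part.

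Chemokines are small secreted proteins that draw cells bearing the matching receptor. Ccl3 and Ccl4 (also called MIP-1α and MIP-1β) and Ccl5 (RANTES) attract T cells and myeloid cells, Xcl1 (lymphotactin) binds Xcr1 on cross-presenting dendritic cells, and Cxcl10 binds Cxcr3 on activated T cells. In CD8 T cells, Ccl3, Ccl4 and Xcl1 are induced when the T cell receptor (TCR) is engaged. Ccl5 is transcribed late after priming and kept as stored message in memory and effector cells, and Cxcl10 is a classical target of interferon signalling.

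Ccl5, Ccl3 and Ccl4 lie in a chemokine cluster on mouse chromosome 11 (GRCm38, GENCODE M21). Ccl5 spans chr11:83525778-83530518 on the minus strand. Ccl3 spans chr11:83647844-83649355 on the minus strand and Ccl4 spans chr11:83662584-83664683 on the plus strand, with 13228 bases between them. Xcl1 (chr1:164931644-164935527, minus strand) lies inside Gm20743 of the plus strand, and Cxcl10 (chr5:92346638-92348889, minus strand) lies inside Art3 of the plus strand. Whether the counting used strand is not given in the sources used here, so reads of these overlapping pairs could be exchanged if it did not. Over all T cells Gm20743 had 8 and 10 UMIs (unique molecular identifiers, 1 per captured transcript) in the C6M9 libraries and 20 and 8 in the M9 libraries. Art3 had 25 and 23 UMIs in C6M9 and 78 and 20 in M9. Of the direct neighbours of the chromosome 11 genes, other than Ccl3 and Ccl4 themselves, Heatr9 alone passed the filter, with 14 and 21 UMIs in the C6M9 libraries and 11 and 5 in the M9 libraries (log2 difference 0.89, adjusted p = 0.327, edgeR).

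Promoter sequences (RefSeq, GRCm38.p6) were at hand for 3 of the 5 genes, and these are shown. Xcl1 was highest in TCR-activated-like cells, Cxcl10 in interferon-like cells, and Ccl3 in different classes in the 2 groups. Ccl4 and Ccl5 were not in the set at hand and are named only. Each line gives the 250 bases before the start site, 5′ to 3′, and capitals mark matches to 4 motifs on either strand.
Cxcl10 (chr5:92348890-92349139, minus strand): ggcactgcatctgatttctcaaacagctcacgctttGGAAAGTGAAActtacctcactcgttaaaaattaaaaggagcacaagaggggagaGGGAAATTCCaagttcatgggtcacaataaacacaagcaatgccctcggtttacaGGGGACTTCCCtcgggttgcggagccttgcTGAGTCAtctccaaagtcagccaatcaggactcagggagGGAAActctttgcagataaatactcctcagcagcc
Xcl1 (chr1:164935523-164935772, minus strand): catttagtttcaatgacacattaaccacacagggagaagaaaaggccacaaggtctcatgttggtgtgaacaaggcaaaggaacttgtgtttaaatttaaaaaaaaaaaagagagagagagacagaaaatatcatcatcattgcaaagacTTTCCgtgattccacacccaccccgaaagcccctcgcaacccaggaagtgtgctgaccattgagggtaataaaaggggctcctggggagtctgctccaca
Ccl3 (chr11:83649379-83649628, minus strand): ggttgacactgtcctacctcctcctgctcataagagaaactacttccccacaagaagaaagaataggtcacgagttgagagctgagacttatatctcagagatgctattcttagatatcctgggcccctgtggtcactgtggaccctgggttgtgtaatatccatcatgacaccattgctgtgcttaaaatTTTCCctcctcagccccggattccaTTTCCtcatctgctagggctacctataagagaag

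The 4 motifs were the core of the interferon-stimulated response element (GAAA, any 2 bases, GAAA), a pattern met by NF-kB sites (GGG, any 5 bases, CC), the AP-1 site (TGANTCA) and the NFAT core (GGAAA). The interferon element occurred in 2.98% of 32851 promoters of this length, and in the Cxcl10 promoter it stood once, as GAAAGTGAAA, 213 bases before the start. Cxcl10 also held 3 NF-kB-like positions, of which 2 overlap each other, and 1 AP-1 site, motifs found in 45.8% and 6.75% of promoters. One NF-kB-like match, GGGAAATTCC, contains an NFAT core, and another NFAT core overlaps the interferon element. The Xcl1 promoter held 1 NFAT core and the Ccl3 promoter 2, with no match to the other 3 motifs; the NFAT core occurs in 55.6% of promoters.

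The matrices held 3220 and 1982 barcodes in C6M9 and 4586 and 1325 in M9. After filtering, 2889 and 1735 T cells remained in C6M9 and 4101 and 1199 in M9, holding 67672214 and 60769443 UMIs in C6M9 and 71708108 and 32311461 in M9, with median depths of 13993 and 21488 UMIs per cell in C6M9 and 13205 and 20024 UMIs in M9. Libraries shared 7 barcodes in all, at most 4 between any pair. CD8 identity genes were present in every library, with Cd8a at 538 ± 0.75 CPM in C6M9 and 549 ± 44.8 CPM in M9 (CPM, UMIs scaled to a common library total with TMM factors; SD, n = 2). T cells fell into 6 named classes by marker lists, from clusters built without the 5 chemokines: TCR-activated-like, progenitor exhausted-like, interferon-like, effector-like, memory-like and cycling-like. The progenitor exhausted-like name rests on Sox4, Izumo1r and Cd22. TCR-activated-like cells made up 4.05% and 5.71% of T cells in C6M9, against 32.2% and 20.9% in M9. Memory-like cells made up 45.3% and 40.2% in C6M9, against 6.998% and 15.9% in M9.

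Over all T cells the low affinity group had more Ccl5 and less of the other 4 chemokines. Ccl5 was higher in C6M9 by 0.99 on the log2 scale, while Ccl3, Ccl4, Xcl1 and Cxcl10 were lower by 1.34 to 1.91 on the log2 scale. All 5 passed edgeR's quasi-likelihood test at an adjusted p of 0.05, where 5.73% of the 13654 genes tested were called, 1.63% as higher in C6M9 and 4.1% as lower.

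Xcl1, the ligand of Xcr1, stood at 36.1 and 41.4 CPM in the C6M9 libraries and at 123 and 71.9 CPM in the M9 libraries. Both C6M9 libraries lay below both M9 libraries, and the M9 libraries differed from each other by more than the C6M9 libraries did. The log2 difference was -1.34 ± 0.22 (SE, n = 2 per group, adjusted p = 0.0158, edgeR), and -0.86 without M9 library 1. Ccl3 had 2.00 and 3.40 CPM in C6M9 and 12.4 and 5.52 CPM in M9. It rested on 131 and 202 UMIs in C6M9 and on 893 and 188 in M9, and the M9 level was set mostly by library 1. Its log2 difference was -1.77 ± 0.38 (adjusted p = 0.0370, edgeR). It was -1.01 without M9 library 1. The call was lost without C6M9 library 1 (-1.42, adjusted p = 0.0998), with stricter filters on cells (-1.52, adjusted p = 0.0907) and with DESeq2 (-1.73, adjusted p = 0.0876).

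Ccl4, the neighbour of Ccl3 on chromosome 11, had 9.65 and 10.7 CPM in C6M9 and 40.3 and 28.6 CPM in M9. Both C6M9 libraries lay below both M9 libraries, with little spread between the C6M9 values. The log2 difference was -1.77 ± 0.16 (adjusted p = 0.00169, edgeR). Cxcl10 had 7.19 and 5.91 CPM in C6M9 and 27.0 and 22.1 CPM in M9. The libraries of a group stood close together and the groups far apart, with a log2 difference of -1.91 ± 0.14 (adjusted p = 8.15e-04, edgeR). Ccl5 ran the other way, at 318 and 238 CPM in C6M9 and at 127 and 154 CPM in M9. Both C6M9 libraries lay above both M9 libraries, with a log2 difference of 0.99 ± 0.15 (adjusted p = 0.0126, edgeR).

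**Figure D1:**
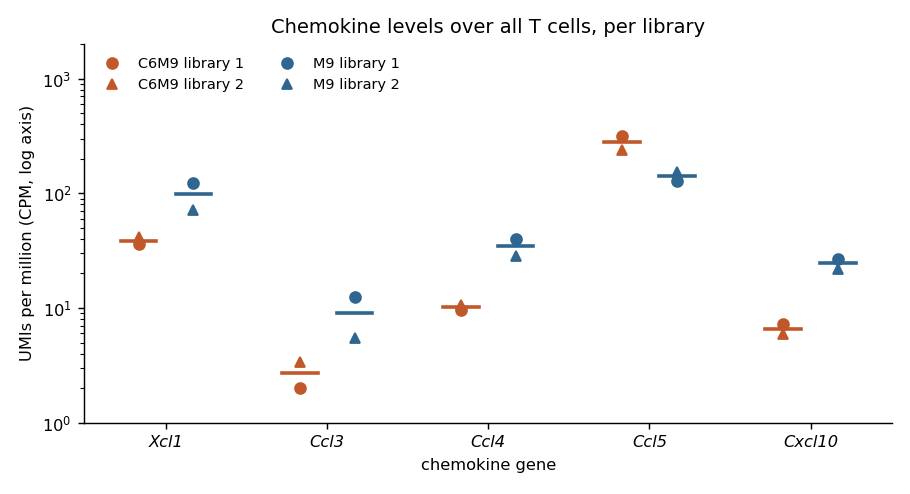
Level of each chemokine over all T cells in CPM (log axis), 1 point per library, with the mean of each group as a bar. Ccl5 is higher in both C6M9 libraries (318 and 238 CPM) than in both M9 libraries (127 and 154 CPM), and the other 4 genes are lower in both C6M9 libraries.

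The size of the differences was also taken number by number, a comparison chosen after seeing the data. Its direction was fixed, since no C6M9 library overlapped an M9 library. For Ccl3 the plain log2 ratio of C6M9 to M9 was -2.64 between the libraries numbered 1 and -0.70 between those numbered 2. For Xcl1 the ratios were -1.77 and -0.80, for Ccl4 -2.06 and -1.42, and for Ccl5 1.32 and 0.63. Cxcl10 gave -1.91 and -1.90, the closest pair of the 5.

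The classes that hold most chemokine message differed in size between the groups, so the comparison was repeated with each of the 6 classes given the same weight in every library. Cxcl10 was the 1 member called, where limma called 1.9% of 11018 genes, 1.65% as lower in C6M9. It averaged 14.4 ± 2.27 CPM in C6M9 and 34.2 ± 1.50 CPM in M9 on that scale (SD, n = 2), a difference of -1.19 ± 0.12 in log2(CPM + 1) (adjusted p = 8.76e-04, limma). Xcl1 came to 69.8 ± 9.79 CPM in C6M9 and 78.6 ± 12.6 CPM in M9, a difference of -0.17 ± 0.13 (adjusted p = 0.526, limma). Ccl3 and Ccl4 gave -0.72 ± 0.25 and -0.62 ± 0.23, and Ccl5 gave 0.61 ± 0.16, with adjusted p of 0.174, 0.191 and 0.0735 (limma). Equal weights balanced the classes, but not the clusters inside a class. The TCR-activated-like class, where Xcl1 was highest, joined clusters 1 and 2. Cluster 1 had 42 and 28 cells in C6M9 and 1066 and 191 in M9. Cluster 2 had 75 and 71 cells in C6M9 and 254 and 60 in M9, and this mix stayed in the Xcl1 value. Leaving out a library leaves 1 library in its group, so that the spread comes from the other group alone, and the lone library is assumed to vary like it. Under that assumption Ccl4 passed without C6M9 library 1 (-1.03), Ccl5 without C6M9 library 2 (0.86) or M9 library 1 (0.41), and Ccl3, Ccl4 and Ccl5 without M9 library 2 (-1.21, -0.88 and 0.81).

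**Figure D2:**
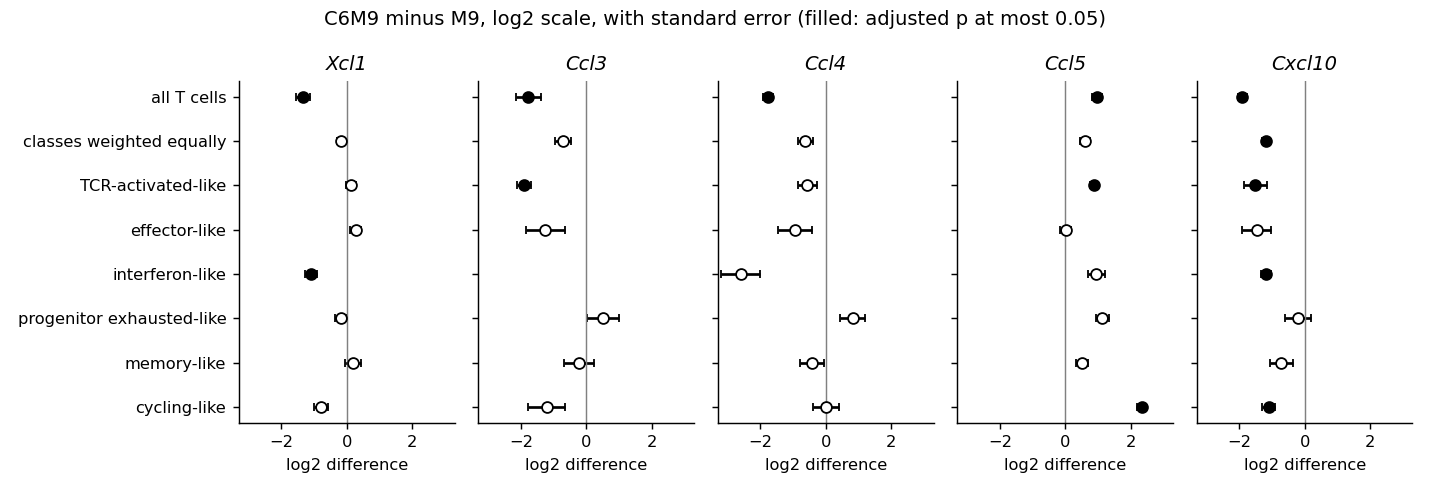
Log2 difference of C6M9 minus M9 with its standard error for each chemokine, over all T cells, with classes weighted equally, and within each class; filled points have an adjusted p of at most 0.05. The filled points of Cxcl10 lie left of 0 in 5 rows and those of Ccl5 lie right of 0 in 3 rows, while Ccl4 is filled over all T cells alone; Ccl3 has no point for interferon-like cells, where it did not pass the filter.

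Where each chemokine was expressed differed by gene. Xcl1 was highest in TCR-activated-like cells, at 277 and 205 CPM in C6M9 and 251 and 189 CPM in M9. Progenitor exhausted-like cells came next, at 95.9 and 64.0 CPM in C6M9 and 94.96 and 84.9 CPM in M9. Every TCR-activated-like sum lay above every progenitor exhausted-like sum, and the progenitor exhausted-like sums overlapped the interferon-like sums of M9 (72.0 and 58.9 CPM). The other class sums of Xcl1 ran between 9.75 and 54.7 CPM. TCR-activated-like cells held 36.1% and 31.4% of all Xcl1 UMIs in C6M9, and 66.9% and 53.0% in M9.

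Ccl4 was highest in TCR-activated-like cells, and its next class differed between the groups. TCR-activated-like cells stood at 105 and 35.8 CPM in C6M9 and at 87.5 and 120 CPM in M9, and progenitor exhausted-like cells at 41.2 and 26.0 CPM in C6M9 and 25.7 and 9.13 CPM in M9. The 2 classes overlapped through C6M9 library 2 of the first and C6M9 library 1 of the second. In interferon-like cells Ccl4 had 9.63 and 5.11 CPM in C6M9 and 78.3 and 12.9 CPM in M9, so that M9 library 1 stood apart there. The interferon-like sums of Ccl4 were below the progenitor exhausted-like ones in both C6M9 libraries and above them in both M9 libraries. Ccl3 stood at 4.55 and 5.31 CPM in TCR-activated-like cells of C6M9 and at 18.6 and 18.7 CPM in those of M9. In progenitor exhausted-like cells it had 19.3 and 9.33 CPM in C6M9, on 23 and 14 UMIs, and 13.4 and 4.24 CPM in M9. In C6M9 the progenitor exhausted-like sums of Ccl3 were thus above the TCR-activated-like ones, and in M9 below them.

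Ccl5 was spread over 4 classes that could not be put in order. Interferon-like cells had 667 and 393 CPM in C6M9 and 183 and 368 CPM in M9, and memory-like cells had 559 and 346 CPM in C6M9 and 260 and 374 CPM in M9. Effector-like cells had 414 and 375 CPM in C6M9 and 443 and 339 CPM in M9, and progenitor exhausted-like cells had 528 and 361 CPM in C6M9 and 153 and 252 CPM in M9. TCR-activated-like and cycling-like cells lay below all of these, between 18.5 and 124 CPM. Cxcl10 was highest in interferon-like cells, at 50.9 and 51.6 CPM in C6M9 and 110 and 122 CPM in M9. TCR-activated-like cells came next in both M9 libraries (54.5 and 56.2 CPM) and in C6M9 library 1 (34.1 CPM). In C6M9 library 2 they had 6.63 CPM, below progenitor exhausted-like cells at 10.0 CPM, on 15 UMIs. The other class sums of Cxcl10 ran between 1.84 and 14.8 CPM. Interferon-like cells, though highest in level, held 23.6% and 28.8% of all Cxcl10 UMIs in C6M9, and 8.16% and 22.6% in M9. More lay in cycling-like cells in C6M9 (36.5% and 42.2%) and in TCR-activated-like cells in M9 (66.5% and 51.5%).

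**Figure D3:**
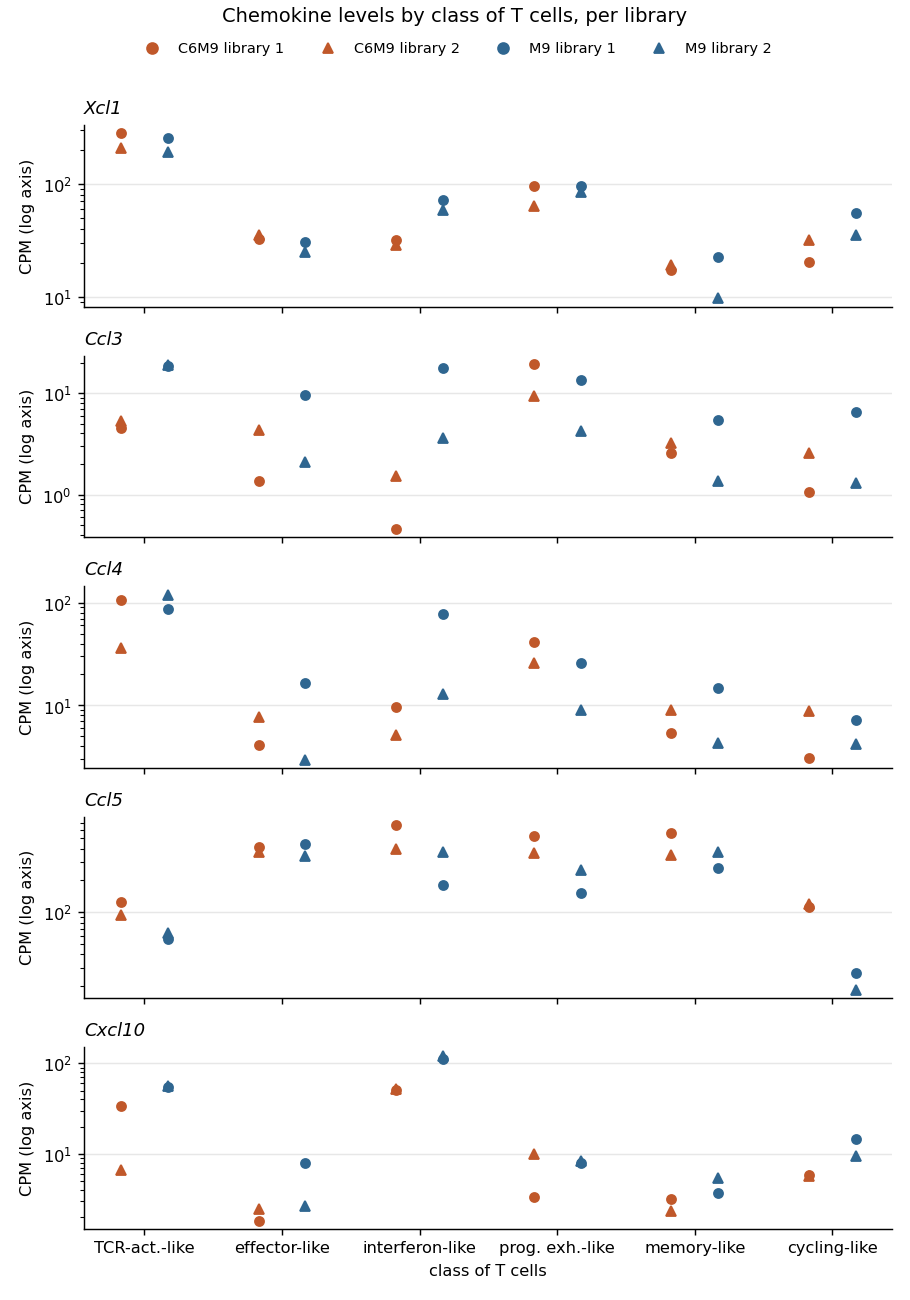
Level of each chemokine in CPM (log axis) in the 6 classes of T cells, 1 point per library. Xcl1 and Ccl4 peak in TCR-activated-like cells and Cxcl10 in interferon-like cells, while Ccl5 lies between 18.5 and 124 CPM in TCR-activated-like and cycling-like cells and above that range elsewhere.

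Within a class, C6M9 and M9 still differed for several of the genes. Of 29 tests of a member in a class, 7 passed. In cycling-like cells, where 1.26% of genes were called, 0.641% as higher and 0.624% as lower in C6M9, Ccl5 had 112 and 120 CPM in C6M9 and 26.7 and 18.5 CPM in M9. This was the largest of the 7 differences, 2.34 ± 0.14 on the log2 scale (adjusted p = 7.12e-05, edgeR). Cxcl10 was lower in the same cells, at 5.86 and 5.65 CPM in C6M9 and 14.8 and 9.43 CPM in M9 (-1.10 ± 0.19, adjusted p = 0.0226, edgeR). It was -0.71 without M9 library 1, and its call in cycling-like cells was lost when the clusters were built without other chemokine and cytokine genes (-1.04, adjusted p = 0.0623).

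In interferon-like cells, where 0.595% of genes were called, 0.464% as lower in C6M9, Cxcl10 and Xcl1 were both lower in C6M9. Cxcl10 differed by -1.18 ± 0.14 (adjusted p = 0.00184, edgeR), with the 2 libraries of each group close together. Xcl1 stood at 31.6 and 29.1 CPM in C6M9 and 72.0 and 58.9 CPM in M9, a difference of -1.10 ± 0.18 (adjusted p = 0.0169, edgeR; 0.0733 with DESeq2). Ccl4 gave -2.61 ± 0.61 there and did not pass (adjusted p = 0.0936).

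In TCR-activated-like cells, where 21.3% of genes were called, 12.2% as higher and 9.13% as lower in C6M9, Ccl5 was higher in C6M9 and Ccl3 and Cxcl10 were lower. This class joins cluster 1, led by Tnfrsf4 and Tnfsf4 (OX40 and its ligand), and cluster 2. The 10 leading genes of cluster 2 were Xcl1, which had been left out of the clustering, Lad1, Tnfrsf9 (4-1BB), Myc, and Pus7, Srm, Atad3a, Mettl1, Polr1b and Smyd5. Myc is a growth regulator, Polr1b a subunit of the polymerase that makes ribosomal RNA, and 2 of the 10 were markers of the class, against 5 of 10 in cluster 1. Cluster 2 held 75 and 71 of the class's cells in C6M9, against 254 and 60 in M9, and cluster 1 held 42 and 28 in C6M9, against 1066 and 191 in M9. Values were therefore also taken in cluster 2 alone, an alternative chosen after seeing the data. The share of all genes called in cluster 2 is not given, so its calls have no background beside them. Ccl5 differed by 0.88 ± 0.13 in the class (adjusted p = 3.93e-04) and by 1.48 ± 0.18 in cluster 2 (adjusted p = 1.94e-05, edgeR). Cxcl10 differed by -1.50 ± 0.36 in the class (adjusted p = 0.00800) and by -1.85 ± 0.31 in cluster 2 (adjusted p = 7.56e-04, edgeR). Its call in the class was lost with DESeq2 (adjusted p = 0.442) and with doublets kept (adjusted p = 0.0558), and C6M9 library 1 (34.1 CPM) lay nearer the M9 libraries than C6M9 library 2 (6.63 CPM): the difference was -3.05 without library 1 of C6M9 and -0.67 without its library 2.

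Ccl3 and Xcl1 changed their outcome with that choice. Ccl3 differed by -1.91 ± 0.23 in the class (adjusted p = 6.76e-05) but by -0.85 ± 0.44 in cluster 2 (adjusted p = 0.389, edgeR). In cluster 1 Ccl3 had 0 and 1 UMIs over the 42 and 28 cells of C6M9, and 348 and 122 UMIs over the 1066 and 191 cells of M9. Xcl1 differed by 0.12 ± 0.15 in the class (adjusted p = 0.605) and by -0.77 ± 0.16 in cluster 2, where it passed (adjusted p = 0.00494, edgeR). In cluster 2 Xcl1 stood at 348 and 236 CPM in C6M9 and at 577 and 445 CPM in M9, without TMM scaling. Ccl4 gave -0.57 ± 0.29 in the class (adjusted p = 0.191) and -0.09 ± 0.32 in cluster 2 (adjusted p = 0.941, edgeR). In the class it depended on single libraries and on the filter: with 1 library in a group it passed at -1.52 without C6M9 library 1, at -0.80 without M9 library 1 and at -0.58 with no filter on low counts, and it was 0.06 without C6M9 library 2.

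No member passed in effector-like, memory-like or progenitor exhausted-like cells, where 0.0178%, 0.284% and 0.113% of genes were called (higher in C6M9, 0.0379% in memory-like and 0.0515% in progenitor exhausted-like cells). Nearest to the threshold was Ccl5 in progenitor exhausted-like cells, at 1.14 ± 0.21 (adjusted p = 0.0577, edgeR). Cxcl10 in effector-like cells gave -1.47 (adjusted p = 0.339), and Ccl5 in memory-like cells gave 0.51 (adjusted p = 0.445, edgeR). Ccl5 in effector-like cells differed by 0.01 ± 0.16, with 414 and 375 CPM in C6M9 and 443 and 339 CPM in M9. This class joins clusters 6 and 10, and their mix stayed in the value. Cluster 10 had 134 and 66 cells in C6M9 and 115 and 12 in M9. Without TMM scaling, Ccl5 had 602 and 481 CPM in cluster 6 of C6M9 and 563 and 460 CPM in that of M9. In cluster 10 it had 242 and 230 CPM in C6M9 and 333 and 74.1 CPM in M9. Whether the difference between groups varied over the 6 classes was tested directly, over 11542 genes of which 12.5% were called. It varied for Ccl5 (adjusted p = 2.24e-04) and Xcl1 (adjusted p = 0.00438, edgeR). The test did not pass for Ccl3 (0.0979), Ccl4 (0.303) or Cxcl10 (0.692), as adjusted p.

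Counted as cells, with every cell thinned to 2000 UMIs, Ccl5 was detected in 26.7% and 22.2% of T cells in C6M9 and in 14.2% and 19.0% in M9. Xcl1 was detected in 5.06% and 4.46% in C6M9 and in 13.4% and 9.05% in M9, and Cxcl10 in 0.935% and 1.04% in C6M9 and in 3.40% and 3.60% in M9. Ccl4 was detected in 1.21% and 1.80% in C6M9 and in 4.69% and 2.26% in M9. The libraries of the 2 groups did not overlap for these 4 genes, at the smallest p that 2 against 2 allows (0.3333, exact two-sided permutation test). A gene that does not differ would separate with that probability, and the share of all genes that did so was not taken. Ccl3, at 0.346% and 0.695% in C6M9 and 2.03% and 0.670% in M9, overlapped. Without thinning the shares were higher, for Ccl5 50.9% and 55.6% in C6M9 and 34.1% and 44.95% in M9, and Ccl4 then overlapped too, at 6.75% and 11.2% in C6M9 and 14.8% and 10.3% in M9. It also overlapped at 5000 UMIs per cell. Cells below 2000 UMIs were left out, 2 and 8 in C6M9 and 9 and 5 in M9.

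Free RNA in the droplets was gauged from B cell-like cells with few T cell UMIs, 41 in C6M9 and 22 in M9, with median depths of 4898 and 4435 UMIs. Asking for few T cell UMIs also left out B cell-like cells with much free T cell RNA, so the gauge may read low. T cells had medians of 16535 UMIs in C6M9 and 14608 UMIs in M9. After thinning, Ccl5 was found in 1 of the 41 B cell-like cells of C6M9, a share of 2.44% (exact 95% interval 0.0617% to 12.9%), against 25.1% of C6M9 T cells. Ccl3 and Ccl4 were likewise found in 1 of 41. Their shares among C6M9 T cells, 0.477% and 1.43%, could not be told from the share in so few B cell-like cells. Before thinning the 41 cells held 30 Ccl5, 6 Ccl4 and 1 Ccl3 UMIs. Whether free RNA or a T cell in the same droplet brought these UMIs was not tested. Xcl1 and Cxcl10 were found in 0 of 41, which allows a share of up to 7.32% (3 counts; the exact upper bound is 8.60%). All 5 genes were found in 0 of 22 cells of M9, which allows up to 13.6% (3 counts; exact upper bound 15.4%). The C6M9 T cell shares of Xcl1 (4.83%) and Cxcl10 (0.975%) lay under these limits, and in M9 even the Ccl5 share, 15.3%, was not above the exact bound. Among all B cell-like cells, including those with more T cell UMIs, Ccl5 was found in 18 of 84 in C6M9 (21.4%, exact interval 13.2% to 31.7%) and in 2 of 39 in M9 (5.13%, 0.627% to 17.3%), and the C6M9 interval holds the 25.1% of its T cells. These intervals and limits cover counting error only.

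The share of T cells with any of the 5 chemokines, at 2000 UMIs per cell, overlapped between the groups. None of the 5 was detected in 68.5% and 72.1% of T cells in C6M9 and in 68.0% and 70.2% in M9. Exactly 1 was detected in 28.9% and 25.7% in C6M9 and in 26.8% and 25.6% in M9. What differed was which one. Ccl5 alone was seen in 24.5% and 20.3% of C6M9 T cells and in 11.7% and 15.9% of M9 T cells, and Xcl1 alone in 3.29% and 3.07% of C6M9 T cells and in 9.78% and 5.95% of M9 T cells. At least 2 were seen together in 2.56% and 2.20% of C6M9 T cells and in 5.13% and 4.19% of M9 T cells, and all 5 in no cell of any library.

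**Figure D4:**
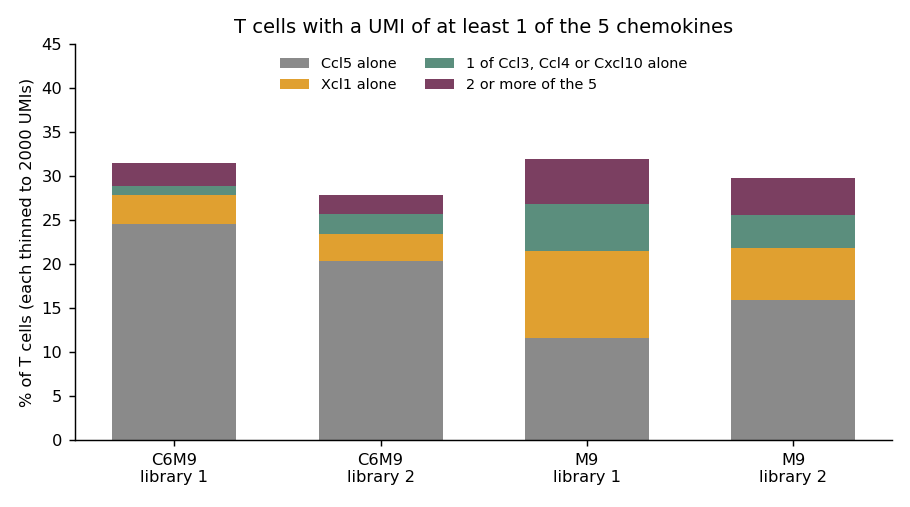
Percent of T cells, each thinned to 2000 UMIs, with a UMI of Ccl5 alone, of Xcl1 alone, of Ccl3, Ccl4 or Cxcl10 alone, or of at least 2 of the 5 chemokines, stacked per library. The stacks reach similar heights, and the Ccl5 part is 24.5% and 20.3% in the C6M9 libraries against 11.7% and 15.9% in the M9 libraries.

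A few cells held much of the message of Ccl3, Ccl4 and Cxcl10. The top 1% of T cells held 69.4% and 47.2% of depth-scaled Ccl4 UMIs in C6M9, and 55.2% and 81.7% in M9. Single cells reached 80 and 50 Ccl4 UMIs in C6M9 and 173 and 188 in M9. For Ccl3 the top 1% held between 52.4% and 80.9% in the 4 libraries. For Cxcl10 it held 69.0% and 66.0% in C6M9, against 38.7% and 38.6% in M9. Ccl5 was spread more evenly, with 21.1% and 20.02% in the top 1% of C6M9 cells and 34.4% and 21.7% in that of M9 cells. A top 1% share also rises where fewer cells have a UMI, so it was not separated from level and detection. Cells with at least 10 Ccl5 UMIs made up 18.9% and 19.8% of T cells in C6M9, against 5.78% and 11.6% in M9, without thinning.

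Co-detection was examined at 5000 UMIs per cell, as the number of cells with both genes over the number expected if the 2 were independent. Ccl3 and Ccl4 went together most. They were found in the same cell 86 times against 14.9 expected, with 7 and 3 such cells in C6M9 and 71 and 5 in M9. The ratio was 12.0 and 3.32 in the C6M9 libraries and 5.52 and 10.0 in the M9 libraries. With the expected number taken within each cluster it was 6.72 and 2.86 in C6M9 and 4.80 and 7.26 in M9, so every library kept an excess. Of cells with Ccl3, 28.0% and 12.5% also had Ccl4 in C6M9, and 46.7% and 33.3% in M9.

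Ccl4 and Xcl1 were the next pair, with 187 cells against 97.8 expected over all T cells and 114 expected within clusters. Their ratio within clusters was 2.25 and 2.45 in C6M9 and 1.51 and 1.77 in M9. Ccl3 and Xcl1 had 68 cells against 47.1 expected within clusters. Ccl5 and Xcl1 were found together in 420 cells against 403 expected over all T cells and 392 within clusters. Ccl4 and Ccl5 had 153 cells against 131 expected over all T cells and 126 within clusters, with a within-cluster ratio of 1.37 and 1.28 in C6M9 and 1.08 and 1.68 in M9. Ccl3 and Ccl5 had 60 cells against 54.2 expected over all T cells, and Xcl1 and Cxcl10 had 92 against 82.0 over all T cells and 97.5 within clusters. Ccl5 and Cxcl10 had all-cell ratios from 0.72 to 1.16 over the 4 libraries. Ccl4 and Cxcl10 had 27 cells against 34.7 expected within clusters, with a ratio under 1 in every library (0.80 and 0.78 in C6M9, 0.79 and 0.65 in M9) on 1 and 1 cells in C6M9 and 23 and 2 in M9. At 2000 UMIs the ratio of this pair was 1.50 and 2.44 in C6M9 and 0.44 and 0 in M9, on 1 and 1 cells in C6M9 and 4 and 0 in M9. Ccl3 and Cxcl10 had 12 cells against 12.0 expected over all T cells, all of them in M9 library 1. Other pairs also moved at 2000 UMIs, where Ccl5 and Xcl1 had 144 cells against 155 expected over all T cells and 142 within clusters. Xcl1 and Cxcl10 had 40 there, against 24.7 and 32.2. Ccl3 and Ccl4 had 38 against 4.41 and 5.41, and Ccl4 and Xcl1 had 86 against 31.4 and 42.5.

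**Figure D5:**
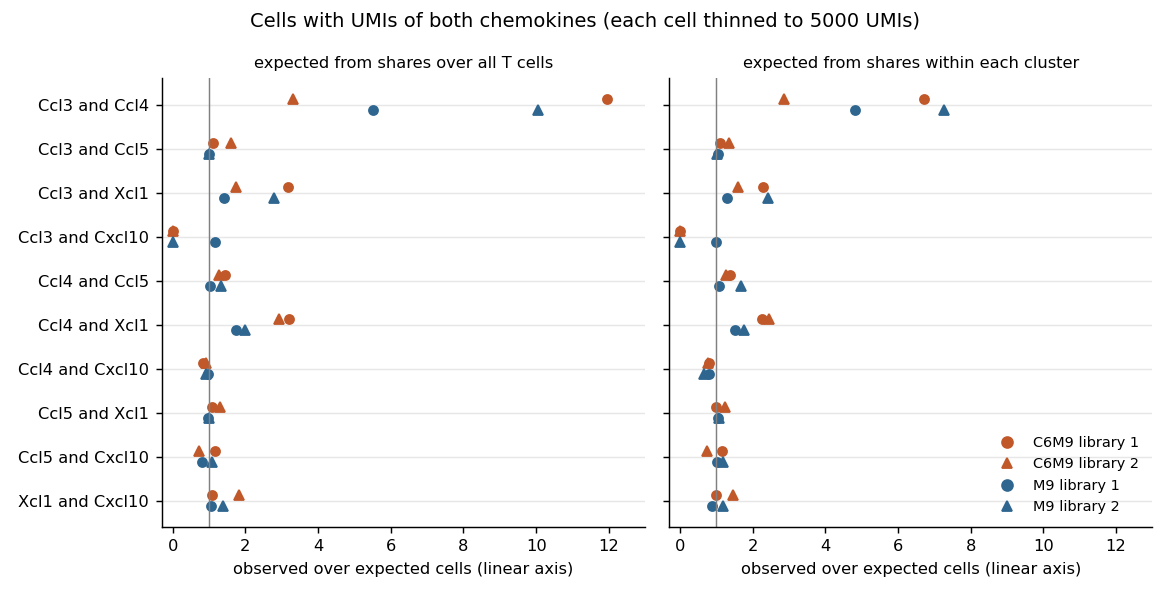
Cells with UMIs of both chemokines over the number expected under independence (linear axis), 1 point per library, with the expected number from all T cells on the left and from within clusters on the right. The pair Ccl3 and Ccl4 lies between 2.86 and 12.0 in both panels, and the pair Ccl3 and Cxcl10 lies at 0 in the 3 libraries where no cell had both.

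Depth-scaled values were also correlated across the cells of each library. For Ccl3 and Ccl4 Pearson's r was 0.35 and 0.28 in the C6M9 libraries and 0.51 and 0.66 in the M9 libraries. For Ccl4 and Xcl1 it was 0.30 and 0.19 in C6M9 and 0.27 and 0.23 in M9. Every pair with Cxcl10 or with Ccl5 lay between -0.07 and 0.10 in all 4 libraries. These are descriptions, since cells of a library share its preparation and depth. The 2 neighbours on chromosome 11 also kept their proportion only loosely: Ccl3 made up 17.2% and 24.2% of the UMIs of Ccl3 and Ccl4 together in C6M9, and 23.6% and 16.2% in M9. In TCR-activated-like cells Ccl3's part was 4.14% and 12.9% in C6M9 and 17.5% and 13.5% in M9, and in progenitor exhausted-like cells it was 31.9% and 26.4% in C6M9 and 34.2% and 31.7% in M9.

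Across the 24 sums of 6 classes in 4 libraries, among 7381 genes averaging at least 10 CPM, the genes most like Ccl3 were Ccl4 (r = 0.81), Ptpn11 (a phosphatase of receptor signalling) and Crtam (an adhesion receptor of activated lymphocytes). Xcl1 (r = 0.84), Orai1 (the pore of the calcium channel opened by TCR signals) and Gadd45b (a stress-signalling gene) were most like Ccl4. Ccl3 averaged under 10 CPM and was not a candidate, though its r with Ccl4 (0.81) was above that of Gadd45b (0.80). Ccl5 was followed most closely by Vsir (an inhibitory receptor, VISTA, r = 0.93), Txnip and Il7r (the interleukin 7 receptor chain). Bcl2a1b (a survival gene of the BCL2 family, r = 0.86), Mrps6 and Srfbp1 were most like Xcl1. Cd274 (PD-L1, r = 0.85), Casp4 and Gypc were most like Cxcl10. Bcl2a1b has near-identical paralogs that can share its reads, and sums of 1 library or 1 class are not independent points.

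Of 31 other chemokine ligand genes 5 passed the filter and none was called. Cxcr3, the receptor of Cxcl10, averaged 108 ± 9.30 CPM in C6M9 and 85.3 ± 0.55 CPM in M9 and did not pass (0.34 ± 0.09, adjusted p = 0.0668). None of 14 tested cytokine genes was called, among them Ifng, at 12.96 ± 7.55 CPM in C6M9 and 30.3 ± 24.4 CPM in M9. It had 499 and 1087 UMIs in the C6M9 libraries and 3413 and 442 in the M9 libraries.

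Of 23 TCR and NF-kB feedback genes, 6 fell and none rose, where 4.1% of all genes tested were called lower and 1.63% higher in C6M9, with a median log2 difference of -0.37 against -0.02 over all genes. Egr2 fell to 4.88 ± 0.05 CPM in C6M9, against 17.2 ± 3.57 CPM in M9 (-1.83 ± 0.15, adjusted p = 0.00111), and Egr3 by 1.13, both transcription factor genes induced by the TCR. Egr1, Nr4a1, Rel and Nfatc1 fell by 0.99, 1.15, 0.72 and 0.40 (edgeR). Egr1, Egr2, Egr3 and Nr4a1 also stood in the marker list that named TCR-activated-like cells. Those cells were a smaller share of T cells in C6M9, and the part of this in the falls was not tested. Of 20 interferon gamma response genes Ifi47, a GTPase gene, rose (0.47 ± 0.08, adjusted p = 0.0163) and none fell, 1 gene of 20 beside the 1.63% called higher over all genes, and the median was 0.12. Irf1, a transcription factor gene of that response, gave 0.06 and did not pass. Of 10 storage and secretion genes Stx11, which serves granule release, fell (-0.69, adjusted p = 0.0105), 1 of 10 beside the 4.1% called lower over all genes.

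Markers of other cells and of stress were measured beside these results, and their part in them was not tested. Their counts of calls stand beside the same 4.1% called lower and 1.63% called higher over all genes. No immediate early or dissociation stress gene of 20 was called, and their summed level was 2045 and 2658 CPM in C6M9 and 2853 and 1999 in M9. Of 14 myeloid and dendritic markers, Cd68 fell (-0.93, adjusted p = 0.0423), while Siglech, Fcgr1, Adgre1, S100a8 and S100a9 had 0 UMIs in every library. Lyz2 had 13 and 6 UMIs in C6M9 and 26 and 16 in M9, and the summed level ranged from 83.6 to 88.2 in C6M9 and from 82.9 to 102 in M9, mostly Cst3. Of 10 natural killer and innate lymphoid markers Klrb1c fell (-1.52, adjusted p = 0.0196), at summed levels of 60.5 to 62.1 in C6M9 and 64.5 to 68.4 in M9. Of 12 B cell markers Ighm and Ighd rose (0.50 and 0.85), at summed levels of 338 to 370 in C6M9 and 309 in both M9 libraries. Of 5 CD4 and regulatory T cell markers Cd4 fell (-1.26, adjusted p = 0.0231), at 32.0 to 44.0 in C6M9 and 44.7 to 72.8 in M9. Of 11 CD8 T cell identity genes Cd44, one of the sorting markers, fell (-0.48, adjusted p = 0.0137).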

How the data were processed

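The deposited matrices, 1 per library, hold unnormalised UMI counts of genes in barcodes, made by the authors with Cell Ranger 6.0.0 on mm10, per the submitters' processing notes. Annotation release, intron counting and strand setting: not given in the sources used here. Barcodes passed with 500 genes or more, 1000 UMIs or more, and no more than 10% of UMIs mitochondrial (10324 of 11113). Scrublet's automatic threshold marked too few cells, so the highest scores were left out at 0.8% per 1000 barcodes, 277 in all. Clusters were made without integration in scanpy 1.11.5 (2000 variable genes without the 5 chemokines, 30 components, 15 neighbours, Leiden resolution 0.6), named from marker lists, and 123 B cell-like cells left out. Intervals of shares are exact binomial at 95%.

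UMIs were summed per library, and per library and class, for classes with at least 50 cells in every library. The difference, C6M9 minus M9, was tested by edgeR's two-sided quasi-likelihood test (version 4.0.16, R 4.3.3) after filterByExpr and TMM scaling, with Benjamini-Hochberg adjustment over all genes tested and a threshold of 0.05. Equal class weights used limma 3.58.1 with trend on log2(CPM + 1). DESeq2 1.42.0 was an alternative. The test was tried on simulated counts. Named genes were the 5 members, list genes called over all T cells (at most 6 a list), the 3 genes most like each member, and chromosome 11 neighbours; others (Cxcr3, Ifng, Irf1, Cd8a, Cst3, Lyz2, and the genes overlapping Xcl1 and Cxcl10) were named after their values were seen. The members and lists were chosen with earlier results of these data known. RefSeq supplied promoters and GENCODE M21 coordinates. Some genes of the lists are not reported here.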

Additional observations from a re-analysis of the deposited data

Results flagged for a closer look

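The difference between C6M9 and M9 varied between the 6 classes of T cells for 2 of the 5 chemokines, by a test of the class by group terms over all genes (edgeR). For Ccl5 the adjusted p was 2.24e-04. Its log2 difference was 2.34 ± 0.14 in cycling-like cells and 0.01 ± 0.16 in effector-like cells, with the other 4 classes between 0.51 and 1.14. The effector-like class joins clusters 6 and 10, whose parts of the class differed between libraries. For Xcl1 the adjusted p was 0.00438. Its log2 difference was -1.10 ± 0.18 in interferon-like cells and -0.79 ± 0.22 in cycling-like cells, while the other 4 classes ran from -0.19 to 0.27. Among these, the TCR-activated-like class, at 0.12, joins clusters 1 and 2, whose parts of the class differed between the groups. Without TMM scaling, Xcl1 in cluster 1 had 39.3 and 89.7 CPM in C6M9 and 150 and 90.2 CPM in M9. In cluster 2 it had 348 and 236 CPM in C6M9 and 577 and 445 CPM in M9. With 1 library left out, which leaves its group with 1 library and takes the spread from the other group alone, the adjusted p reached 0.0249 for Ccl5 without C6M9 library 2 and 0.0448 for Xcl1 without M9 library 1.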

How the results depend on the processing

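Over all T cells Ccl4, Ccl5, Xcl1 and Cxcl10 kept direction and call under every alternative run, and Ccl3 lost its call with DESeq2 (-1.73), stricter filters on cells (-1.52) and without C6M9 replicate 1. Leaving out 1 library gave -2.21 to -1.01 for Ccl3, -1.99 to -1.47 for Ccl4, 0.76 to 1.18 for Ccl5, -1.67 to -0.86 for Xcl1 and -2.05 to -1.72 for Cxcl10. Genes called numbered 782, against 1934 with no filter on low counts and 239 to 1882 with 1 library left out. Of the member tests within classes 7 passed, against 18 with no filter, 13 with the replicate block and 11 to 17 with 1 library left out. Members whose difference varied between classes numbered 2, against 4 with no filter and 2 to 4 with 1 library left out, and with equal class weights 1 passed, against 4 with the replicate block (adjusted p of 0.0217 for Ccl3, 0.00248 for Ccl4 and 0.00933 for Ccl5, limma) and 2 to 4 with 1 library left out. The cause was not tested. The counts of members under these alternatives stand without the share of all genes called in the same fits. They therefore cannot show whether members gained calls more often than other genes. Values that changed sign had no call in the fit reported. With 1 library left out these ran, in cycling-like cells, from -1.97 to 0.46 for Ccl3 and from -0.92 to 0.60 for Ccl4. In effector-like cells they ran from -2.23 to 0.43 for Ccl3, -1.51 to 0.97 for Ccl4 and -0.17 to 0.21 for Ccl5, and in memory-like cells from -0.93 to 1.08 for Ccl3, -1.07 to 0.72 for Ccl4 and -0.31 to 0.91 for Xcl1. In progenitor exhausted-like cells they ran from -0.055 to 1.70 for Ccl3, -0.50 to 0.089 for Xcl1 and -1.26 to 0.30 for Cxcl10, and in TCR-activated-like cells from -1.52 to 0.063 for Ccl4 and -0.10 to 0.36 for Xcl1. Ccl4 in cycling-like cells was -0.12 with the replicate block. Clusters made without other chemokine and cytokine genes gave -0.38 for Ccl4 in cycling-like cells, -0.0098 for Ccl5 in effector-like cells, 0.10 for Ccl4 and -0.57 for Xcl1 in memory-like cells, and -0.016 for Xcl1 in TCR-activated-like cells, which came to -0.77 in cluster 2 alone. Xcl1 in effector-like cells was -0.20 with doublets kept. With single clusters for classes, 398 genes were called in TCR-activated-like cells, against 2172, and 111 in effector-like cells, against 2. The numbers of genes tested in the single clusters are not given here. Over all T cells the block changed no member's call. Like-numbered libraries deviated weakly in opposite directions (r = -0.13 over 7413 genes) but were alike in median depth per cell. It was 13993 UMIs in C6M9 and 13205 in M9 for number 1, and 21488 and 20024 for number 2. Whether the numbers mark a shared batch is not stated and was not tested. With crossed numbers, a pairing chosen after seeing the data, 1667 genes were called. Shares did not overlap for 4 members at 2000 UMIs, for 3 at 5000 UMIs or with no thinning, and for 5 with at least 2 UMIs asked for. The share of all genes that did so was not taken at these settings. Every fit with 1 library left out takes the spread from the other group alone. Depth limits the class sums of Ccl3 most, at 1 and 3 UMIs in interferon-like cells of C6M9.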
